A study of Homo sapiens with 4 samples.

Results

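Nuclear transport receptors and nucleoporins were examined in C4-2 cells after knockdown of RRM2, the small subunit of ribonucleotide reductase. Members were the rows of the gene table whose symbol began with KPNA, KPNB, IPO, XPO, TNPO or NUP followed by a number (or XPOT), without pseudogene or antisense rows, and with at least 10 counts in at least 2 libraries. Of 27275 rows, 51 matched by symbol, 47 remained without pseudogenes and antisense RNAs, and 44 were kept. The 44 comprised 17 import receptors (6 importin alpha adaptors and 11 beta-type receptors), 6 exportins and 21 pore proteins, and all 44 passed the expression filter and were tested.

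C4-2 is a human prostate cancer line derived from LNCaP cells. The cells were transfected either with a pool of siRNAs against RRM2 or with a scrambled siRNA as control, and RNA-seq was performed on 2 libraries per group. Both groups are transient transfections of 1 line, a pool does not separate the effects of its single siRNAs, and no source states the time after transfection for these libraries. Whether replicate libraries were made from separate cultures is likewise not stated, so p-values cover only the variation among these 4 libraries, which may be technical. The RRM2 siRNA libraries held 29941671 and 28941206 counts and the scrambled siRNA libraries 28508906 and 27844121 counts.

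RRM2 itself had 118 and 125 normalized counts in the RRM2 siRNA libraries, against 1333 and 1239 in the scrambled siRNA libraries, a log2 fold change of −3.41 (SE 0.08; adjusted p = 2.60e-13 by edgeR's quasi-likelihood test). A normalized count here is a count scaled to a common library size. All 11 markers of prostate luminal epithelium (among them KLK3 and TMPRSS2) were detected, with a summed level of 329762 to 333110 normalized counts in RRM2 siRNA libraries and 361670 to 373428 in scrambled siRNA libraries. Of the markers of other cell types, 3 of 7 for fibroblasts, 1 of 5 for leukocytes and 2 of 4 for endothelium reached 10 counts in at least 2 libraries. Their summed levels were 1276 to 1294, 295.5 to 316 and 213 to 217 normalized counts with RRM2 siRNA, against 1144 to 1204, 191 to 217 and 233 to 243 with scrambled siRNA, and their part in the results was not tested. The leukocyte marker PTPRC had at most 1 normalized count in any library, and no marker of these lists was at 0 in all 4 libraries. Ribosomal and other structural RNA genes took 4.52% and 8.28% of counts in RRM2 siRNA replicates 1 and 2, against 3.94% and 4.08% in the scrambled siRNA libraries. Leaving these genes out changed no call among the members.

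Proteins and RNAs pass the nuclear envelope through nuclear pore complexes, which are built from nucleoporins in stacked rings around a central channel. Importin alpha adaptors bind a classical nuclear localization signal and are carried inward by KPNB1 (importin beta), while the other beta-type receptors bind their cargo directly. Exportins carry proteins, tRNAs or microRNA precursors outward. Direction is set by the small GTPase RAN, which is charged with GTP at chromatin by RCC1 and discharged in the cytoplasm with the help of RANGAP1. In proliferating cells these genes serve a high traffic of histones, ribosomal proteins and ribosomal subunits, and the envelope and its pores are rebuilt at each division.

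More members fell than rose after RRM2 siRNA. At an adjusted p under 0.05, 23 of the 44 members (52.3%) were lower and 6 (13.6%) were higher, and 15 did not pass. Among all 15840 genes tested, 25.0% were lower and 25.4% were higher at this threshold. These include genes of low count, where a small change seldom passes, whereas the members had means of 142 to 10550 normalized counts. Members were not set against genes of like count, and the part of count level in these shares was not tested. The median log2 fold change was −0.12 over the members and −0.0018 over all genes tested. Below 0 lay 35 of the 44 members and 7965 of the 15840 genes tested. The changes were small: with a fold change over 1.5 in addition, 2 members were lower (KPNA2 and NUP35) and 1 was higher (NUP62CL), where 5.25% of all genes were lower and 5.9% higher. In 29 members both RRM2 siRNA libraries lay below both scrambled siRNA libraries and in 7 both lay above, against 37.3% and 37.7% of all genes tested.

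The 3 classes differed in their counts, and the difference between classes was not tested. Of all genes tested, 25.0% were lower and 25.4% were higher. Exportins had 4 lower members of 6 (66.7%), 0 higher members and a median log2 fold change of −0.21. Pore proteins had 12 lower (57.1%) and 2 higher (9.52%) members of 21, with a median of −0.18. Import receptors had 7 lower (41.2%) and 4 higher (23.5%) of 17, so their higher share was near that of all genes. Their median was −0.06 (−0.12 without scrambled siRNA replicate 2 and −0.02 without scrambled siRNA replicate 1). Within them, importin alpha had 2 lower members, 2 higher members (33.3% each) and 2 that did not pass (median 0.06). So few genes do not tell these shares from those of all genes. The exportins are as few, and their shares were not tested against those of all genes. The beta-type receptors had 5 lower (45.5%) and 2 higher (18.2%) of 11 (median −0.10). These small counts and medians moved with single libraries. Importin alpha had 1 lower and 1 higher member without RRM2 siRNA replicate 1, and its median was 0.014 without RRM2 siRNA replicate 2, 0.015 without scrambled siRNA replicate 2 and 0.09 without scrambled siRNA replicate 1. Without either replicate 2 it had 2 lower and 1 higher member, and without scrambled siRNA replicate 1 it had 1 lower and 2 higher. The median of the beta-type receptors was −0.05 without RRM2 siRNA replicate 1 and −0.15 without RRM2 siRNA replicate 2, with 4 and 6 lower members.

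**Figure D1:**
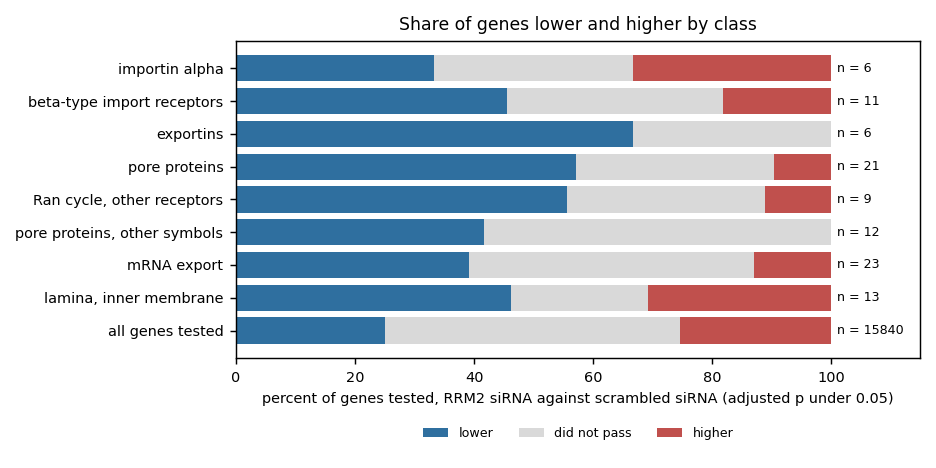
Percent of genes (x axis) that were lower, did not pass or were higher with RRM2 siRNA against scrambled siRNA at an adjusted p under 0.05, by class of transport gene and for all 15840 genes tested (rows, with the number of genes). Lower genes make up 66.7% of exportins (4 of 6) and 57.1% of pore proteins (12 of 21), against 25.0% of all genes tested.

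**Figure D2:**
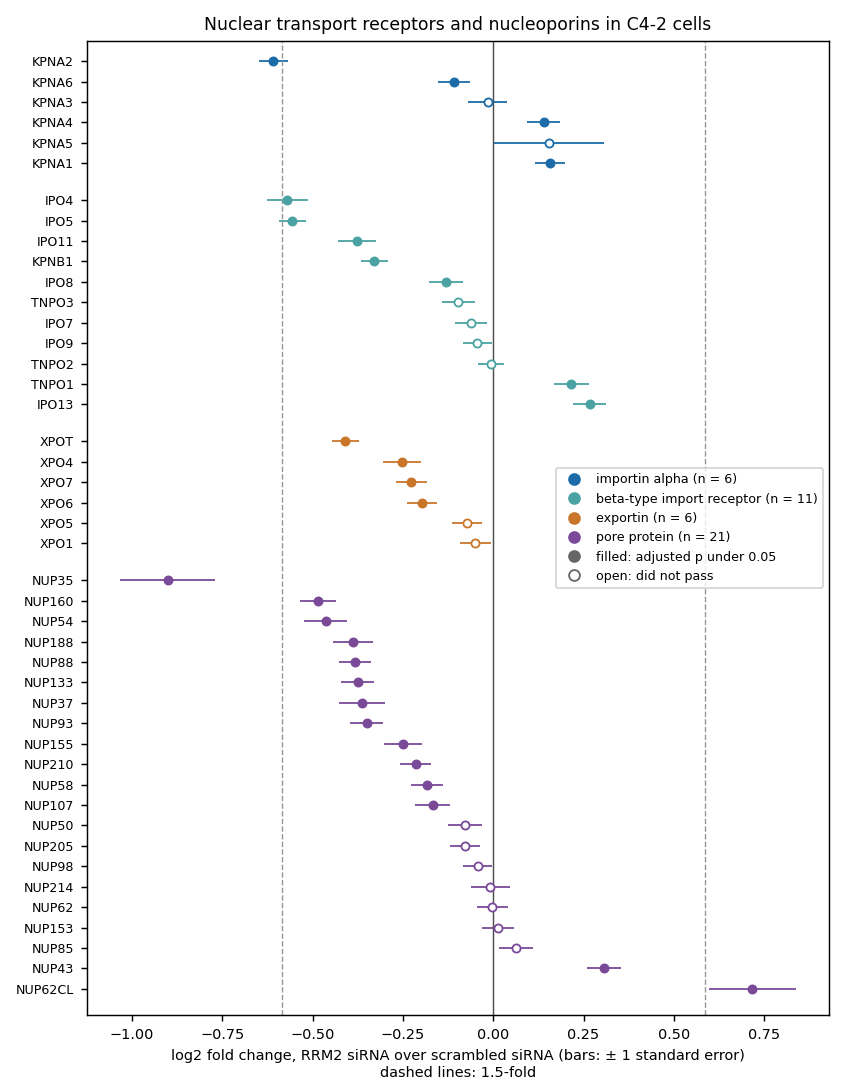
Log2 fold change of RRM2 siRNA over scrambled siRNA (x axis) for each of the 44 members, grouped by class and ordered by value, with bars of ± 1 standard error. Filled points passed at an adjusted p under 0.05, and the dashed lines at 1.5-fold show that KPNA2, NUP35 and NUP62CL lie beyond them.

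Promoter sequences are shown for members that carry the E-box CACGTG, the word bound by MYC with MAX, because MYC itself was lower in these cells. MYC had 2885 and 2910 normalized counts in RRM2 siRNA libraries and 7955 and 7705 in scrambled siRNA libraries, a log2 fold change of −1.43 (SE 0.04; adjusted p = 2.05e-12). CACGTG is its own reverse complement, so both strands were searched at once. In windows of 250 bases before to 50 bases after the RefSeq transcript start (GRCh38.p14), it was found in 7 of the 39 members that had a promoter in the table (17.9%). Counted by gene in the same way, it was found in 12.4% of 11515 tested genes, 15.1% of lower genes and 11.3% of higher genes. It was found in 8.77% of all 27305 genes with a promoter. Counted by promoter instead, it was in 7.26% of all 35116 promoters in the table. Of the 7 carriers, IPO4 and NUP188 were lower, and IPO7, KPNA3, NUP50, TNPO2 and XPO1 did not pass. By comparison, 52.3% of the members and 25.0% of all genes tested were lower. The sites of IPO7, KPNA3, NUP50 and TNPO2 are not printed, so the sites shown do not represent the calls of the carriers. The promoters below are those of IPO4, the importin of histones and ribosomal proteins (chr14:24188828-24188857, minus strand), of NUP188 at both of its matches (chr9:128947610-128947639 and chr9:128947657-128947686, plus strand), and of XPO1 (chr2:61537114-61537143, minus strand), which held the word and did not pass. They are written 5′ to 3′ with the E-box in capitals.
IPO4: tgtcagaacctcCACGTGctgtccctcccc
NUP188 first: ccgcggcaacgtCACGTGacgaaatccccg
NUP188 second: ggggcgagcggtCACGTGggcatggcgtct
XPO1: gtccgcctgcatCACGTGgccccctcggtg
The match is a description of these letters. Whether MYC binds there was not measured, and its part in the results was not tested.

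Among the importin alpha adaptors, KPNA2 fell and KPNA1 and KPNA4 rose. KPNA2 (chr17:68035602-68046859, plus strand) had 3172 and 3120 normalized counts in RRM2 siRNA libraries, against 4807 and 4792 in scrambled siRNA libraries. The groups were far apart relative to their spread, and KPNA2 was 1.53-fold lower, a log2 fold change of −0.61 (SE 0.04; adjusted p = 1.55e-08). KPNA1 had 3763 and 3906 normalized counts with RRM2 siRNA and 3434 and 3441 with scrambled siRNA, a log2 fold change of 0.16 (SE 0.04; adjusted p = 0.00561). KPNA4, with 3042 and 2917 against 2742 and 2670 normalized counts, had a log2 fold change of 0.14 (SE 0.04; adjusted p = 0.0172). Both rises were small beside the fall of KPNA2, although neither overlapped between groups.

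KPNA6 had 3488 and 3676 normalized counts with RRM2 siRNA and 3905 and 3818 with scrambled siRNA (log2 fold change −0.11, adjusted p = 0.0479), and KPNA3 and KPNA5 did not pass. KPNA3 had 959 and 967 against 1009 and 938 normalized counts, and KPNA5, the least abundant member, 139 and 160.5 against 140 and 129. The calls of KPNA1, KPNA4 and KPNA6 each depended on single libraries, and those of KPNA4 and KPNA6 also on the method. KPNA1 had an adjusted p of 0.0617 without RRM2 siRNA replicate 2, over a range of 0.00197 to 0.0617 in 12 alternative fits. KPNA4 had an adjusted p of 0.188 without RRM2 siRNA replicate 1 and 0.0628 without scrambled siRNA replicate 2, and of 0.0538 with DESeq2, over a range of 0.00926 to 0.188. KPNA6 had an adjusted p of 0.356 without RRM2 siRNA replicate 1 and 0.111 without scrambled siRNA replicate 1. With all 4 libraries it was 0.118 with DESeq2, 0.108 with library size alone and 0.0507 with no filter on low counts, over a range of 0.0328 to 0.356.

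The makeup of the importin alpha pool was described per kilobase of exon, which allows levels of different genes to be set side by side. The 6 adaptors summed to 2731 and 2748 normalized counts per kilobase in RRM2 siRNA libraries and to 3306 and 3265 in scrambled siRNA libraries. KPNA2 made up 41.8% and 40.9% of that sum with RRM2 siRNA, against 52.4% and 52.8% with scrambled siRNA. KPNA1 made up 20.2% and 20.8%, against 15.2% and 15.4%, and KPNA4 12.4% and 11.8%, against 9.24% and 9.11%. The shares of genes that did not rise were larger too. KPNA6 made up 17.3% and 18.1%, against 16.0% and 15.85%, and KPNA3 7.85% and 7.86%, against 6.82% and 6.42%. A share grows when another part of the sum falls, so it does not show a rise in level. In the RRM2 siRNA libraries the pool was thus smaller, and a smaller share of it was KPNA2. The ratio of KPNA2 to KPNB1, its carrier, was 0.344 and 0.329 in RRM2 siRNA libraries and 0.401 and 0.417 in scrambled siRNA libraries. Such ratios use normalized counts not divided by length, so only their difference between groups is read.

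Of the beta-type import receptors, IPO4, IPO5, IPO11, KPNB1 and IPO8 were lower. IPO5, which imports ribosomal proteins and histones, had 4682 and 4664 normalized counts in RRM2 siRNA libraries against 6896 and 6853 in scrambled siRNA libraries, a log2 fold change of −0.56 (SE 0.04; adjusted p = 1.77e-08). The 2 groups were separated by many times the difference within each. IPO4 (chr14:24180219-24188918), whose E-box is printed above, had 583 and 607 normalized counts with RRM2 siRNA and 895 and 871 with scrambled siRNA (log2 fold change −0.57, SE 0.06, adjusted p = 1.03e-06).

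KPNB1, the receptor shared by all importin alpha adaptors, had 9228 and 9477 normalized counts in RRM2 siRNA libraries and 11999 and 11496 in scrambled siRNA libraries. Its log2 fold change was −0.33 (SE 0.04; adjusted p = 3.38e-06). IPO11, which imports ubiquitin-conjugating enzymes, had 898 and 861 against 1174 and 1113 normalized counts (log2 fold change −0.38, adjusted p = 2.67e-05). IPO8, a relative of IPO7, had 2419 and 2542 against 2785 and 2644 normalized counts and passed narrowly (log2 fold change −0.13, adjusted p = 0.0317). The IPO8 call was lost without RRM2 siRNA replicate 1 (adjusted p = 0.236) and without scrambled siRNA replicate 1 (0.125), and with all libraries under DESeq2 (0.0956) and library size alone (0.0691), over a range of 0.0119 to 0.236 in 12 fits.

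TNPO1 and IPO13 went the other way. TNPO1, which imports hnRNP proteins, had 3938 and 3927 normalized counts with RRM2 siRNA, against 3543 and 3227 with scrambled siRNA (log2 fold change 0.22, SE 0.05, adjusted p = 0.00146). IPO13, a receptor that imports and also exports cargo, had 2181 and 2195 against 1843 and 1793 normalized counts (log2 fold change 0.27, SE 0.05, adjusted p = 1.72e-04). In both genes each RRM2 siRNA library exceeded each scrambled siRNA library. TNPO2, the close paralog of TNPO1, had 6913 and 6799 normalized counts with RRM2 siRNA and 6900 and 6866 with scrambled siRNA, which overlap (log2 fold change −0.0057, SE 0.04, adjusted p = 0.913). The difference between the paralogs was not tested. IPO7, IPO9 and TNPO3, the last an importer of splicing factors, had log2 fold changes of −0.06, −0.04 and −0.10 and did not pass.

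**Figure D3:**
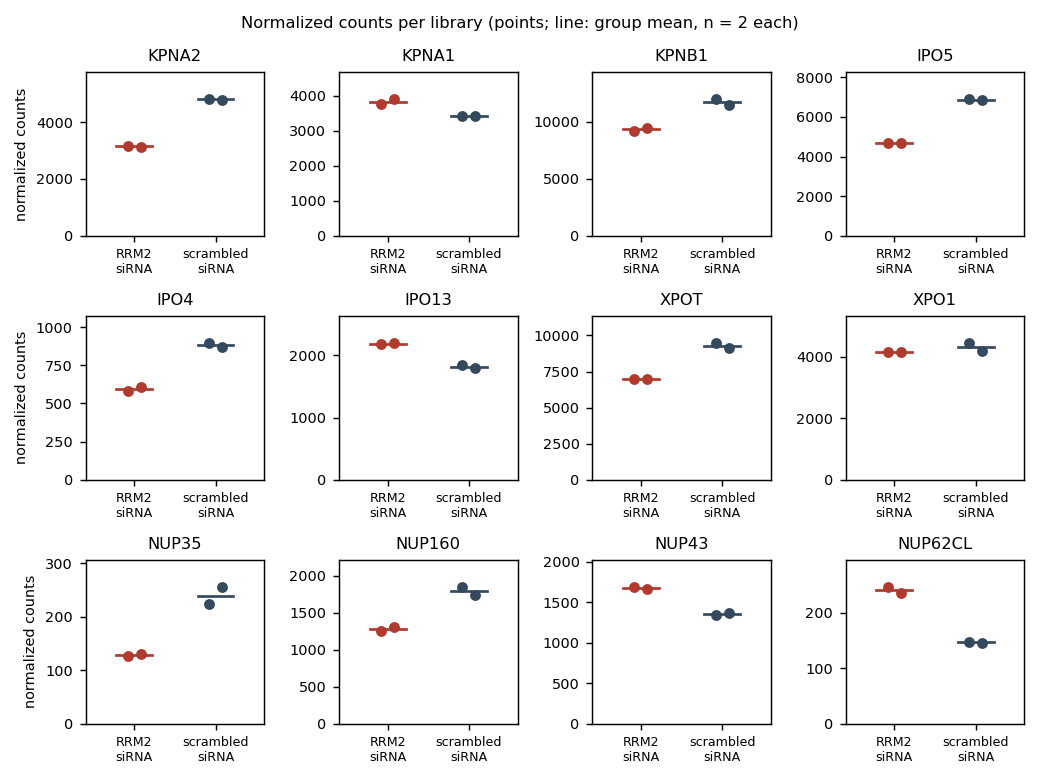
Normalized counts (y axes, from 0) of 12 members in each library, RRM2 siRNA on the left and scrambled siRNA on the right of each panel, with a line at the group mean (n = 2 each). In 8 panels, among them KPNA2, IPO5, XPOT and NUP35, both RRM2 siRNA points lie below both scrambled siRNA points, and in KPNA1, IPO13, NUP43 and NUP62CL they lie above; XPO1, one of the 8, did not pass.

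All 6 exportins had lower means with RRM2 siRNA, and 4 passed. Among the 15840 genes tested, 7965 had a log2 fold change below 0 and 25.0% were called lower. XPOT, the exporter of tRNAs, had 7005 and 6997 normalized counts in RRM2 siRNA libraries against 9463 and 9134 in scrambled siRNA libraries, a log2 fold change of −0.41 (SE 0.04; adjusted p = 3.18e-07). It was the exportin with the largest change. XPO4, which exports the translation factor eIF5A, had 1260 and 1267 against 1571 and 1438 normalized counts (log2 fold change −0.25, adjusted p = 9.00e-04). XPO7 had 3479 and 3488 against 4191 and 3961 normalized counts (log2 fold change −0.23, adjusted p = 4.53e-04). XPO6, the exporter of actin, had 5042 and 5149 against 6052 and 5634 normalized counts (log2 fold change −0.20, adjusted p = 0.0012). In these 4 genes the groups did not overlap, and the spread within scrambled siRNA was the wider one.

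XPO1 (CRM1), the general exporter of proteins with a leucine-rich export signal, did not pass. It had 4161 and 4163 normalized counts with RRM2 siRNA and 4434 and 4182 with scrambled siRNA, a log2 fold change of −0.05 (SE 0.04; adjusted p = 0.348). XPO5, which exports microRNA precursors, had 2885 and 2918 against 3053 and 3049 normalized counts and did not pass either (log2 fold change −0.07, adjusted p = 0.169). CSE1L, which returns importin alpha to the cytoplasm and carries another symbol, had 4844 and 4819 against 5046 and 4925 normalized counts (log2 fold change −0.05, adjusted p = 0.351).

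The 12 pore proteins that fell included 4 of 5 members of the inner ring, 4 of 6 of the Y complex, 2 of 4 of the central channel, NUP88 and NUP210. Each part has few genes, and 25.0% of all genes tested were lower. NUP35, an inner ring protein (chr2:183117490-183161684, plus strand), had 126 and 130 normalized counts in RRM2 siRNA libraries, against 224 and 255 in scrambled siRNA libraries. It was 1.87-fold lower, with a log2 fold change of −0.90 (SE 0.13; adjusted p = 4.19e-05), the largest change of any member and also one of the lowest counts. NUP188 had 1700 and 1643 against 2319 and 2055 normalized counts (log2 fold change −0.39, SE 0.06, adjusted p = 4.04e-05). NUP93 had 1451 and 1455 against 1843 and 1863 (log2 fold change −0.35, adjusted p = 1.48e-05), and NUP155 1659 and 1677 against 2085 and 1881 (log2 fold change −0.25, adjusted p = 0.00108). NUP205, the large relative of NUP188, had 5381 and 5606 against 5948 and 5650 and did not pass (log2 fold change −0.08, adjusted p = 0.128).

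The Y complex, which forms the outer rings, had 4 lower members, 1 higher member and 1 that did not pass. The lower members are 66.7% of the part, against 25.0% of all genes tested, and the higher member is 16.7%, against 25.4%. NUP160 had 1246 and 1313 normalized counts in RRM2 siRNA libraries against 1845 and 1738 in scrambled siRNA libraries (log2 fold change −0.49, SE 0.05, adjusted p = 1.61e-06). NUP133 had 1851 and 1843 against 2415 and 2379 (log2 fold change −0.38, adjusted p = 6.03e-06), and NUP37 507 and 528 against 647 and 686 (log2 fold change −0.36, adjusted p = 2.26e-04). NUP107 had 1290.5 and 1356 against 1462 and 1510 (log2 fold change −0.17, adjusted p = 0.00988). The NUP107 call was lost without RRM2 siRNA replicate 1 (adjusted p = 0.105) and with DESeq2 (0.0804), over a range of 0.00791 to 0.105 in 12 fits.

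NUP43, a peripheral subunit of the same complex, rose. It had 1685 and 1668 normalized counts with RRM2 siRNA and 1339 and 1371 with scrambled siRNA, a log2 fold change of 0.31 (SE 0.05; adjusted p = 6.07e-05). The ratio of NUP43 to NUP133 was 0.91 and 0.905 in RRM2 siRNA libraries and 0.554 and 0.576 in scrambled siRNA libraries, so the transcripts of the 2 subunits were in different proportions in the 2 groups. NUP85, also of this complex, had 1310 and 1271 against 1233 and 1237 normalized counts and did not pass (log2 fold change 0.06, adjusted p = 0.283).

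In the central channel, NUP54 and NUP58 fell and their partner NUP62 did not pass. NUP54 had 617 and 621 normalized counts in RRM2 siRNA libraries against 888 and 818 in scrambled siRNA libraries (log2 fold change −0.46, SE 0.06, adjusted p = 1.31e-05). NUP58 had 3037 and 3067 against 3533 and 3398 (log2 fold change −0.18, SE 0.04, adjusted p = 0.0024). NUP62 had 3147 and 3146 normalized counts with RRM2 siRNA and 3203 and 3099 with scrambled siRNA, which overlap (log2 fold change −0.0022, SE 0.04, adjusted p = 0.972). The ratio of NUP54 to NUP62 was 0.196 and 0.197 with RRM2 siRNA, against 0.277 and 0.264 with scrambled siRNA, and that of NUP58 to NUP62 was 0.965 and 0.975, against 1.1 and 1.1. NUP98, a channel protein with phenylalanine-glycine repeats, had 4190 and 4319 against 4460 and 4308 normalized counts and did not pass (log2 fold change −0.04, adjusted p = 0.401).

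On the cytoplasmic side, NUP88 fell while its partner NUP214 did not pass. NUP88 had 2138 and 2235 normalized counts with RRM2 siRNA and 2827 and 2873 with scrambled siRNA (log2 fold change −0.38, SE 0.05, adjusted p = 5.72e-06). NUP214 had 1432 and 1502 against 1545 and 1404, which overlap (log2 fold change −0.0083, adjusted p = 0.913). The membrane protein NUP210 had 4756 and 5034 against 5837 and 5526 normalized counts (log2 fold change −0.22, adjusted p = 6.98e-04). Both proteins of the nuclear basket among the members, NUP153 and NUP50, did not pass, with log2 fold changes of 0.01 and −0.08.

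NUP62CL, a gene related to the C-terminal part of NUP62, rose most among the members. It had 246 and 236 normalized counts in RRM2 siRNA libraries and 147 and 146 in scrambled siRNA libraries, a 1.64-fold difference with a log2 fold change of 0.72 (SE 0.12; adjusted p = 1.56e-04). The ratio of NUP62CL to NUP62 was 0.0781 and 0.0749 with RRM2 siRNA, against 0.0459 and 0.047 with scrambled siRNA. It was assigned to no part of the pore and is not drawn with them.

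**Figure D4:**
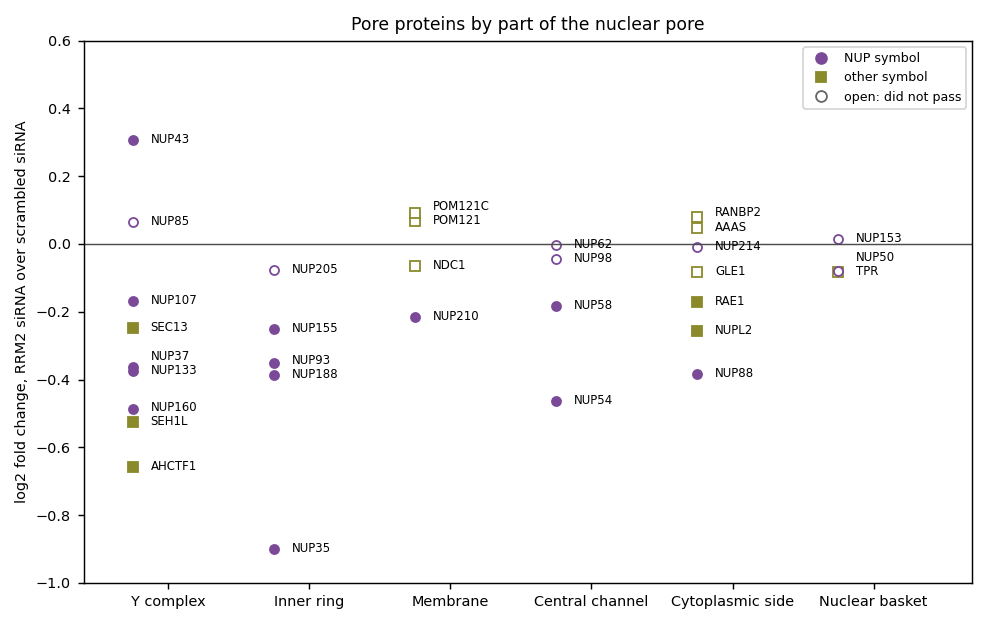
Log2 fold change of RRM2 siRNA over scrambled siRNA (y axis) for pore proteins by part of the nuclear pore (x axis), with circles for NUP symbols, squares for pore proteins under other symbols and open marks for those that did not pass. The inner ring lies wholly below 0, NUP43 stands alone above the other Y complex subunits that passed, and the nuclear basket has 0 filled marks.

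Pore proteins under other symbols, and the other genes of transport, were counted from lists. Of 12 such pore proteins, 5 were lower by edgeR's quasi-likelihood test (41.7%, against 25.0% of all genes tested) and 0 were higher (against 25.4%). None was higher at an unadjusted p under 0.05 or with DESeq2 either, but 2 were higher without scrambled siRNA replicate 1. AHCTF1 (ELYS), which brings the Y complex to chromatin, had 1946 and 2104 normalized counts with RRM2 siRNA, against 3216 and 3174 with scrambled siRNA (log2 fold change −0.66, SE 0.05, adjusted p = 4.38e-08). SEH1L, a Y complex subunit, had 930.0 and 932 against 1391 and 1289 normalized counts (log2 fold change −0.53, adjusted p = 9.20e-07). NUPL2, of the cytoplasmic side, had a log2 fold change of −0.26, and SEC13 and RAE1 had −0.25 and −0.17. TPR, the main protein of the basket, had 5169 and 5344 against 5601 and 5535 normalized counts and did not pass (log2 fold change −0.08, adjusted p = 0.0864). Counted with these 3 subunits (AHCTF1, SEH1L and SEC13), the Y complex had NUP43 as its only gene called higher.

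In the Ran cycle and the receptors outside the rule, 5 of 9 genes were lower (55.6%, against 25.0% of all genes tested) and 1 was higher (11.1%, against 25.4%). RAN had 5556 and 5455 normalized counts in RRM2 siRNA libraries, against 7785 and 8122 in scrambled siRNA libraries (log2 fold change −0.53, SE 0.04, adjusted p = 3.92e-08). RCC1, the exchange factor of RAN, had 1762 and 1723 against 2443 and 2529 (log2 fold change −0.51, SE 0.05, adjusted p = 3.37e-07). RANBP17, a receptor related to XPO7, had 201 and 213 against 295 and 297 (log2 fold change −0.51, SE 0.10, adjusted p = 6.07e-04). RANBP1 and RANBP3 were also lower, at −0.36 and −0.17, and RANGAP1, the GTPase activator, was higher at 0.17. NUTF2, which brings RAN back into the nucleus, did not pass (log2 fold change 0.02).

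Of 23 genes of mRNA export, 9 were lower (39.1%, against 25.0% of all genes tested) and 3 were higher (13.0%, against 25.4%; 1 gene without RRM2 siRNA replicate 2). The helicase DDX39A had 1157 and 1113 normalized counts with RRM2 siRNA, against 1736 and 1693 with scrambled siRNA (log2 fold change −0.59, adjusted p = 1.17e-07). ALYREF, the adaptor that hands mRNA to the export receptor, had 860 and 788 against 1230 and 1242 (log2 fold change −0.58, adjusted p = 4.56e-07), and THOC7 of the THO complex had a log2 fold change of −0.34. The higher genes were POLDIP3, DDX19B and FYTTD1, at 0.32, 0.21 and 0.15.

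Of 13 genes of the lamina and inner nuclear membrane, 6 were lower (46.2%, against 25.0% of all genes tested) and 4 were higher (30.8%, near the 25.4% of all genes tested; 2 without RRM2 siRNA replicate 1). LMNB2 and LMNB1, the B-type lamins, had log2 fold changes of −0.60 (SE 0.04; adjusted p = 3.01e-08) and −0.54 (SE 0.05; adjusted p = 2.11e-07). LBR, the receptor that binds them, had −0.54 (adjusted p = 3.13e-07). LMNA, which encodes the A-type lamins, rose instead, with 4610 and 4688 normalized counts in RRM2 siRNA libraries against 3260 and 3386 in scrambled siRNA libraries (log2 fold change 0.48, adjusted p = 2.11e-07). SYNE1 was also lower but had 8.47 and 11.2 against 21.2 and 17.7 normalized counts.

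Levels were then ordered per kilobase of exon, a scale on which different genes can be compared. KPNB1 had rank 1 and KPNA2 rank 2 in both groups, with 1400 and 1133 mean normalized counts per kilobase in RRM2 siRNA libraries and 1758 and 1728 in scrambled siRNA libraries. With scrambled siRNA the 2 could not be separated, since both KPNA2 values fell between the KPNB1 values. XPOT had rank 5 with RRM2 siRNA (1092 per kilobase), against rank 3 with scrambled siRNA (1450), and IPO5 had rank 9 (764.5), against rank 5 (1125). With RRM2 siRNA the values of KPNA2 and XPO6 overlapped, as did those of XPO6 and TNPO2. KPNA5 was lowest in both groups, at 13.2 and 11.9 per kilobase, and NUP62CL and NUP35 were next to it, at 137 and 69.0 with RRM2 siRNA and 83.4 and 129 with scrambled siRNA. NUP35 thus lay below NUP62CL with RRM2 siRNA and above it with scrambled siRNA. The 21 pore proteins summed to 7737 and 7908 per kilobase with RRM2 siRNA and 8873 and 8618 with scrambled siRNA. For the exportins the sums were 4347 and 4378, against 5209 and 4958, and for the beta-type receptors 6868 and 6998, against 7953 and 7656.

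**Figure D5:**
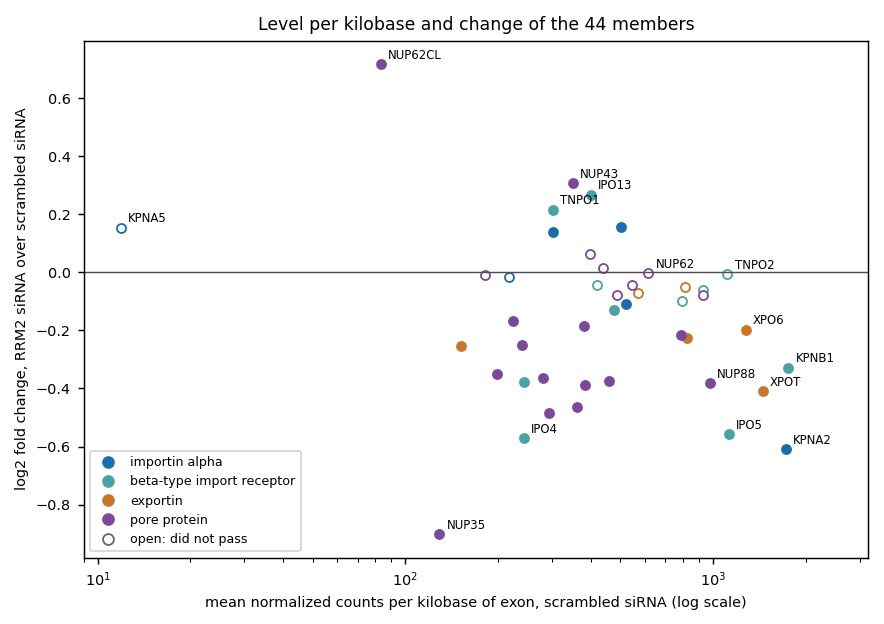
Log2 fold change of RRM2 siRNA over scrambled siRNA (y axis) against the mean normalized counts per kilobase of exon in scrambled siRNA libraries (x axis, log scale) for the 44 members, colored by class, with open circles for those that did not pass. Members with a level near or above 1000 per kilobase in scrambled siRNA fell (KPNB1, KPNA2, XPOT, XPO6, IPO5 and NUP88) or did not pass (TNPO2). The next in level, IPO7 and NUP205 (930 and 925 per kilobase), did not pass. The 2 members furthest from 0, NUP35 and NUP62CL, have low levels.

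Target-like words were also looked up, since an siRNA can lower transcripts whose 3′ UTR pairs with its seed. The 7-base word AAGTCCA was chosen from earlier results of these data, and the sources used here do not give the sequences of the pool's siRNAs. It was searched on the transcript strand of GENCODE v29 transcripts (GRCh38). The 3′ UTRs of 8 of 44 members held it (18.2%), against 11.4% of 13677 tested genes, 15.1% of lower genes, 8.9% of higher genes and 10.9% of genes that did not pass. Among the members it was in 4 of 23 that were lower (KPNA2, KPNA6, NUP58 and NUP93), in 1 of 6 that were higher (KPNA4) and in 3 of 15 that did not pass (IPO9, KPNA3 and XPO5). RRM2 holds the word before its 3′ UTR, a place where members hold it too. These are the lower members IPO11, NUP93, NUP107, NUP133, NUP160, NUP188 and XPO6, the higher members KPNA1 and KPNA4, and NUP153, which did not pass. The sites of KPNA2 (chr17:68046820-68046842, plus strand), NUP93 (chr16:56845109-56845137, plus strand), KPNA4 (chr3:160496870-160496898, minus strand) and RRM2 (chr2:10129333-10129361, plus strand) are given as a lower member near its transcript end, another lower member, the higher member, and the targeted gene, 5′ to 3′ with the word in capitals.
KPNA2: aataaacattcAAGTCCAccctt
NUP93: gagtgtgacttAAGTCCAgatggtccaag
KPNA4: tcaggatgtccAAGTCCAgtgtattttca
RRM2: ggagtgatgtcAAGTCCAacagagaattc
In 19 of the 23 lower members, IPO4, IPO5, XPOT and NUP35 included, the searched 3′ UTRs did not hold these letters. Among these 19, IPO11, NUP107, NUP133, NUP160, NUP188 and XPO6 held them before the 3′ UTR. Since the word was chosen from these same data, its shares among lower and higher genes are a description and cannot test a seed. The part of this word in the results was not tested.

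Rows near the rule were as follows. KPNA7 (8.47 and 10.2 normalized counts with RRM2 siRNA, 8.06 and 8.33 with scrambled siRNA), NUP210L (0 and 0, against 1.01 and 2.08) and the readthrough gene IPO11-LRRC70 (0.941 and 0, against 8.06 and 23.9) fell short of the count minimum, and KPNA5 was the member closest above it. The pseudogene IPO5P1 had 503 and 499 normalized counts with RRM2 siRNA and 712 and 651 with scrambled siRNA. Its sequence is nearly that of IPO5, so reads of the 2 may be shared between the rows. Estimated counts were whole numbers for IPO5 and within 0.004 of whole numbers for IPO5P1. In 14 members, among them KPNA2, KPNB1 and NUP62, an estimated count lay more than 0.1 from a whole number. Sharing of reads between rows was not tested. For 9 members another row with at least 10 counts overlapped the gene, among them NUP88 (with RABEP1 and RPAIN), NUP188 (with DOLK), NUP98 (with PGAP2), NUP62 (with ATF5 and IL4I1) and XPO5 (with POLR1C). The sources used here do not say whether counting used strand, so the values of these genes are less certain.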

How the data were processed

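RNA-seq was done on 4 libraries of C4-2 cells, 2 with RRM2 siRNA and 2 with scrambled siRNA, grouped by the labels. Values deposited by the authors were estimated counts for each gene, made in Partek Flow and not normalized. The sources used here do not give the aligner, annotation, genome build or library selection. Per library 71.0% to 71.7% of values were whole numbers. A spreadsheet had turned 27 symbols into dates, and these rows (0.161% to 0.172% of counts) were kept but not named. Positions are those of the table with the end lowered by 1 base, since the table's stop was 1 base past the RefSeq end in 10268 genes. Of 24730 symbols, 99.92% overlap their GRCh38.p14 position, all 44 members included.

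Estimated counts were rounded, filtered with filterByExpr (15840 genes tested) and scaled by TMM. The test was edgeR's quasi-likelihood test (version 4.0.16, glmQLFit and glmQLFTest, in R 4.3.3) over all 4 libraries. P-values were adjusted by Benjamini-Hochberg over all genes tested. Members were counted at an adjusted p under 0.05, and also with the study's fold change over 1.5. The SE was derived from the log2 fold change and its F value. The biological coefficient of variation was 3.87%. Levels per kilobase used the union of exons of GENCODE v29 basic transcripts, which need not be the isoforms expressed. Chi-square per degree of freedom between replicates, for genes of 20 or more counts in a pair and without structural RNA genes, was 1.98 for RRM2 siRNA and 2.95 for scrambled siRNA, so no pair differed by less than the sampling noise.

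On simulated counts for this comparison (15840 genes), edgeR recovered 80.6% of genes changed 1.5-fold, 91.0% of those changed 2-fold and 98.5% of those changed 4-fold, and 2.70% of its calls were false. Few genes were changed in the simulation, and every gene had the same coefficient of variation, close to the 3.87% of these libraries. In the data 25.0% of genes were called lower and 25.4% higher, so these rates are not those of the calls here. The members, the gene lists and the word AAGTCCA were chosen with earlier results of these data known. Genes were named by rule: members past both thresholds; the 5 with the largest change in importin alpha, beta-type receptors, exportins and pore proteins where the mean reached 100 normalized counts; KPNB1, KPNA2, XPO1, NUP98 and NUP62; the 3 with the largest change that passed in each other list, with RAN, CSE1L and TPR; and further members as examples. Other genes of these lists (such as LMNA, RANGAP1 and POLDIP3) and MYC were named after their values were seen. Alternatives were limma voom (3.58.1), DESeq2 1.42.0, scaling by DESeq2 size factors or by library size, no filter or a minimum of 10 counts in each library, a replicate block, leaving out each library or the structural RNA genes, and a fold change over 2. Protein sequences were not analysed here.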

Additional observations from a re-analysis of the deposited data

How the results depend on the processing

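Of the 29 members that passed, 24 passed in all 12 alternative fits and 5 were lost in at least 1 (KPNA1, KPNA4, KPNA6, IPO8 and NUP107), whereas TNPO3, IPO7 and NUP205 passed in at least 1, and no call reversed. Lower and higher members numbered 20 and 5 with DESeq2 (17.4% and 17.4% of all genes in the same fit), 21 and 6 with library size alone (23.1% and 24.2%), 22 and 6 with no filter on low counts (18.7% and 18.1%), and 20 to 26 and 5 to 6 with 1 library left out (21.0% to 23.2% and 20.9% to 23.4%). Same-numbered libraries did not deviate together (correlation 0.02), and the replicate block gave 23 lower and 6 higher members (25.8% and 26.2%). Among all genes at a fold change over 1.5, 935 were higher, against 597 with DESeq2; at a fold change over 2, 256 were lower and 412 higher, and 0 members were lower and 0 higher. Higher lamina genes numbered 2 with DESeq2 and 2 to 5 with 1 library left out (2 without RRM2 siRNA replicate 1), higher mRNA export genes 1 to 3 (1 without RRM2 siRNA replicate 2), and higher pore proteins under other symbols 0 to 2 (2 without scrambled siRNA replicate 1). The median of the import receptors ranged from −0.1203 (without scrambled siRNA replicate 2) to −0.0204 (without scrambled siRNA replicate 1). The cause of these differences was not tested. With 2 libraries per group, members with log2 fold changes between −0.10 and 0.15 and standard errors of 0.04 to 0.15 did not pass, which does not show that they were unchanged.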
